A study of Mus musculus with 4 samples.

Results

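The comparison of day 6 with day 4 in Tacc3 wt/wt mouse intestinal organoids rests on 2 of the series' 4 arrays, chosen by their titles: 1 array of wt/wt organoids at day 4 and 1 at day 6. The other 2 arrays hold fl/fl organoids at the same days. Organoids are 3D cultures of intestinal epithelium, and these were recovered from Matrigel. All 4 cultures received 4OHT (4-hydroxytamoxifen) for 24 hours to recombine Apc and, where floxed, Tacc3, the gene of a spindle protein. The labels wt/wt and fl/fl (floxed) name the alleles of Tacc3, so the wt/wt cultures held no floxed Tacc3. Per the design text the days, 4 and 6, run from that treatment. The sample descriptions call the day 4 organoids normal and the day 6 organoids Apc-deficient, whereas the design text places recombination of Apc before both collections, so the labels do not settle the Apc state of either array. The sources used here do not give strain, age, the Cre driver or whether cultures were pooled. As each group has 1 array, replicate error is unknown throughout, and differences of the wt/wt pair are described by size without a test.

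The intestinal epithelium renews itself from stem cells at the crypt base, whose division depends on Wnt ligands that stabilise beta-catenin. Apc belongs to the complex that degrades beta-catenin, and its loss leaves the pathway active without a ligand. Daughter cells become absorptive enterocytes, which carry digestive enzymes on a brush border of microvilli, or secretory Paneth, goblet, enteroendocrine and tuft cells. An epithelium regrowing after injury, or of fetal type, uses a different programme in which the coactivator YAP and genes such as Clu are prominent.

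The values are deposited probe set intensities in arbitrary units. A day difference is the day 6 value minus the day 4 value of log2(intensity + 16) for the brightest probe set of a gene, a scale that understates differences of dim genes. Of 18193 genes with a probe set, 11392 reached the median over every probe set on the arrays (log2 5.04, or 16.9 in intensity), and these are the genes counted here. Such an array compares a gene with itself, not 1 gene with another.

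In wt/wt organoids 2082 of 11392 genes (18.3%) were at least 2-fold higher at day 6, and 338 (2.97%) were at least 2-fold lower. Day differences ran from -2.57 to 4.44, with a median of 0.17 and 5th and 95th percentiles of -0.87 and 1.68. The large differences were in the direction of day 6: 253 genes were at least 4-fold higher and 9 at least 4-fold lower, and 18 were at least 8-fold higher and 0 lower. The excess of higher genes depended on scaling. The median array intensity was 17.7 at day 4 and 15.8 at day 6, while the 95th percentile went the other way, 303.0 against 424. After quantile normalization, which gives all arrays 1 distribution, 1176 of 11406 genes (10.3%) were higher and 1094 (9.59%) lower, with a median difference of -0.13. Of these 1176, 1175 were 2-fold higher as deposited too, but the rest of the 2082 did not stay 2-fold higher. Among that rest, 5 genes turned to 2-fold lower. All 338 genes lower as deposited stayed 2-fold lower, as a minority of the 1094.

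The fl/fl pair, which shares no array with the wt/wt pair, had 1394 genes (12.2%) at least 2-fold higher at day 6 and 330 (2.9%) lower. Of the 2082 genes higher in wt/wt organoids, 1067 (51.2%) were also 2-fold higher in fl/fl, which is 76.5% of the fl/fl list, and 2005 (96.3%) differed in the same direction. Of the 338 lower genes, 154 (45.6%) were 2-fold lower in fl/fl, which is 46.7% of the fl/fl list, and 330 (97.6%) differed in the same direction. No gene was 2-fold higher in 1 genotype and 2-fold lower in the other. Across genes the 2 sets of day differences correlated with r = 0.80 (Spearman rho 0.79, n = 11392 genes, which are not independent replicates and share the processing of each day). A limma fit of day and genotype to the 4 arrays tested the day difference common to both genotypes. Its 1 residual degree of freedom holds the difference between the genotypes in their day differences, not replicate error. Genes with unlike day differences in the 2 genotypes therefore tend to fail it. The fit called 2598 genes (22.8%) higher and 814 (7.15%) lower at day 6 at a Benjamini-Hochberg adjusted p under 0.05. Adjusted p-values below are from that fit, and say nothing of wt/wt organoids alone.

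The control probe sets differed between the 2 wt/wt arrays. The 5′ to 3′ ratio of Actb was 0.0610 at day 4 and 0.180 at day 6, and that of Gapdh 0.208 and 0.411, from probe sets that read an mRNA near its 5′ end, in its middle and near its 3′ end. For Actb the 3′ intensity was higher at day 4, 13598 against 10832, whereas the 5′ intensity was lower, 830 against 1948. Pcx had ratios of 0.418 and 0.567. Tfrc had 0.439 and 0.413, from 5′ and 3′ intensities under 13. Hybridization controls added in equal amounts to such arrays read a median 2.56-fold brighter at day 4 (18 probe sets), poly-A spike-ins 2.17-fold (27 probe sets) and 18S ribosomal RNA 3.71-fold (3 probe sets). In the fl/fl pair the ratio was lower at day 4 too, at 0.0627 against 0.261 for Actb and 0.142 against 0.524 for Gapdh. RNA integrity and day therefore cannot be told apart in either pair, nor in the limma fit over both. The part of either in the values above and below was not tested.

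**Figure D1:**
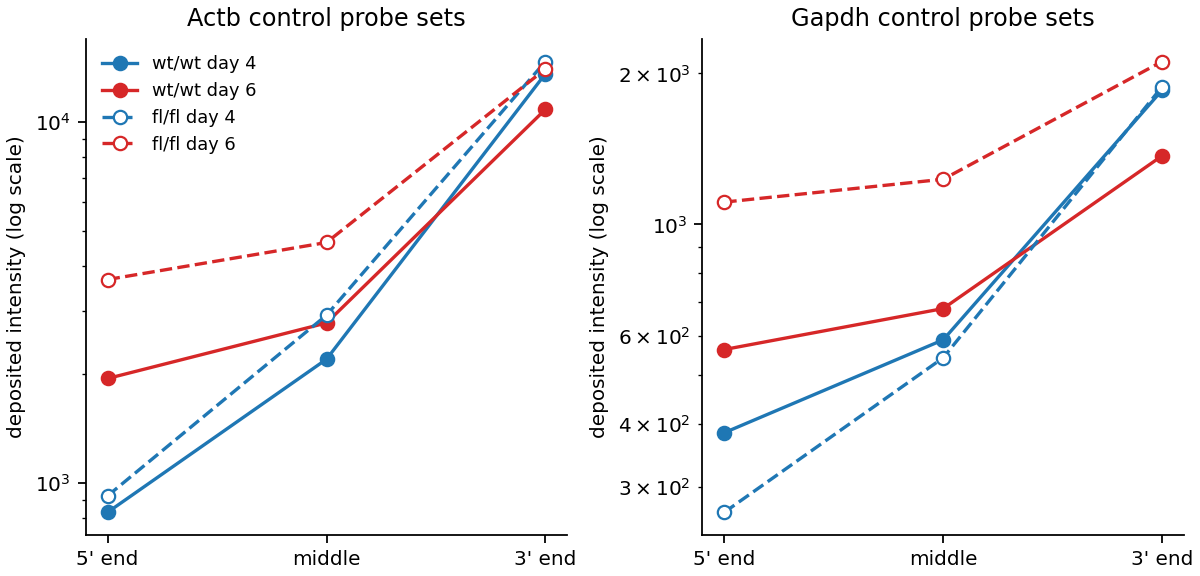
Deposited intensity (log axis) of the 5′, middle and 3′ control probe sets of Actb (left) and Gapdh (right) on each of the 4 arrays, 1 point per probe set and array. At the 5′ end of Actb the day 6 wt/wt array reads 1948 against 830 at day 4, while at the 3′ end the order is turned, 10832 against 13598.

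Probe sets of 1 gene did not always go the same way. Of 4816 genes with several probe sets above the filter, 124 (2.57%) had probe sets at least 2-fold apart in opposite directions. Of the 1027 higher genes with several such probe sets, 660 (64.3%) had all of them higher at day 6, whereas of the 222 lower genes only 84 (37.8%) had all of them lower. Where another probe set of a gene named as 2-fold higher or lower was 2-fold the other way, its value is given beside it.

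The wt/wt organoids at both days expressed the defining genes of intestinal epithelium. The keratin genes Krt8 and Krt18 read 7343 at day 4 and 8496 at day 6 and 5983 at day 4 and 6117 at day 6, and the enterocyte transcription factor Hnf4a 1953 at day 4 and 2496 at day 6. Of 12 epithelial genes, 4 were 2-fold higher at day 6 and none lower, with a median of 0.73 against 0.17 for all genes. The adhesion gene Epcam was the highest of them, 901 at day 4 and 4789 at day 6 (day difference 2.39, and 1.69 in fl/fl; adjusted p = 0.00445, limma). Few markers of other cells were above the filter. They included 6 of 17 mesenchymal genes, with a summed intensity over all 17 of 533 at day 4 and 226 at day 6. For 16 measured immune genes the sums were 2260 and 1781, of which Lyz2, a lysozyme gene close in sequence to that of Paneth cells, made up 1887 and 1532. For 10 endothelial genes they were 237 and 147. The collagen gene Col1a1, the leukocyte gene Ptprc and the endothelial cadherin Cdh5 stayed near the lower end of the array's range at day 4 and day 6: Col1a1 read 18.01 and 9.16, Ptprc 6.77 and 4.82, and Cdh5 8.69 and 7.36. The mesenchymal genes above the filter all read lower at day 6, Fn1 most, at 142 and 22.1. In a bulk sample, fewer cells of a type and less RNA per cell cannot be told apart, for these and all cell types below.

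The 15 highest genes included several enterocyte surface proteins. Enpep, a brush border aminopeptidase, read 37.8 at day 4 and 1154 at day 6, a day difference of 4.44. Reg3b, a secreted lectin that kills bacteria, read 161 at day 4 and 3441 at day 6 (4.29), and its other probe set read 23.7 and 1857. Tmigd1, an adhesion protein of microvilli, read 95.4 at day 4 and 1751 at day 6 (3.99), and Mep1b, a subunit of the protease meprin, 93.8 at day 4 and 1222 at day 6 (3.49). Dpp4, a dipeptidyl peptidase, read 25.6 at day 4 and 375 at day 6 (3.23), and Lgr4, a receptor for R-spondins, which strengthen Wnt signals, 101 at day 4 and 984 at day 6 (3.10). The cytochrome P450 genes Cyp4f14 and Cyp2c55 differed by 3.38 and 3.22. All 8 genes differed by at least 2.46 in fl/fl organoids too.

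The other 7 genes among the highest 15 came from none of the enterocyte lists. Ogt, the enzyme that attaches O-GlcNAc to proteins, read 56.4 at day 4 and 1025 at day 6 (3.85, and 2.05 in fl/fl), while 3 further probe sets of it above the filter differed by 0.54 to 1.28. Clk1, a kinase that phosphorylates SR splicing factors, read 117 at day 4 and 1352 at day 6 (3.36), against 365 and 517 in fl/fl (0.49). Hoxb3, a homeobox gene of anterior-posterior identity, read 33.4 at day 4 and 425 at day 6 (3.16), against 123 and 143 in fl/fl (0.19). The remaining members were Usp33 (3.42), a deubiquitinase, Zfp950 (3.30), a zinc finger gene, Nup153 (3.21), a nuclear pore subunit, and Khdc4 (3.14). For Clk1 and Hoxb3 the additive fit did not pass (adjusted p = 0.0556 and 0.0864, limma), and these were the 2 of the 15 that were under 2-fold in fl/fl organoids. That fit takes the difference between the genotypes as its error, so such genes tend to fail it.

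The 15 lowest genes held matrix and YAP-related genes. Ccn2, a matrix protein and standard target of YAP, read 108 at day 4 and 11.04 at day 6, and its day difference was -2.20, the same as the -2.20 of fl/fl. Fn1, fibronectin, read 142 at day 4 and 22.1 at day 6 (-2.06), and Thbs1, thrombospondin 1, 213 at day 4 and 45.98 at day 6 (-1.89). Nkd1, which is induced by Wnt and restrains it, read 422 at day 4 and 101 at day 6 (-1.90), and the intermediate filament gene Nes 312 at day 4 and 39.1 at day 6 (-2.57). Vegfa, the angiogenic growth factor, read 374 at day 4 and 64.8 at day 6 (-2.27), but its other probe set read 61.4 and 152.8, a difference of 1.12. Such disagreement was common here: 12 of the 15 had another probe set above the filter, in 8 of them 1 went the other way, and in 4 it did so by at least 2-fold. Besides Vegfa these were Rapgef6 (-2.12 against 1.06), Elf2 (-1.91 against 1.09) and Arid4b (-1.88 against 2.48). Among the 15 highest genes, 7 had another probe set and none went the other way. The other members were Nfia (-2.20), Sprr1a (-2.06), Zc3h15 (-2.01), Mia3 (-2.005), Rbms3 (-1.95) and Tenm4 (-1.84), and all 15 were 2-fold lower in fl/fl organoids too.

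**Figure D2:**
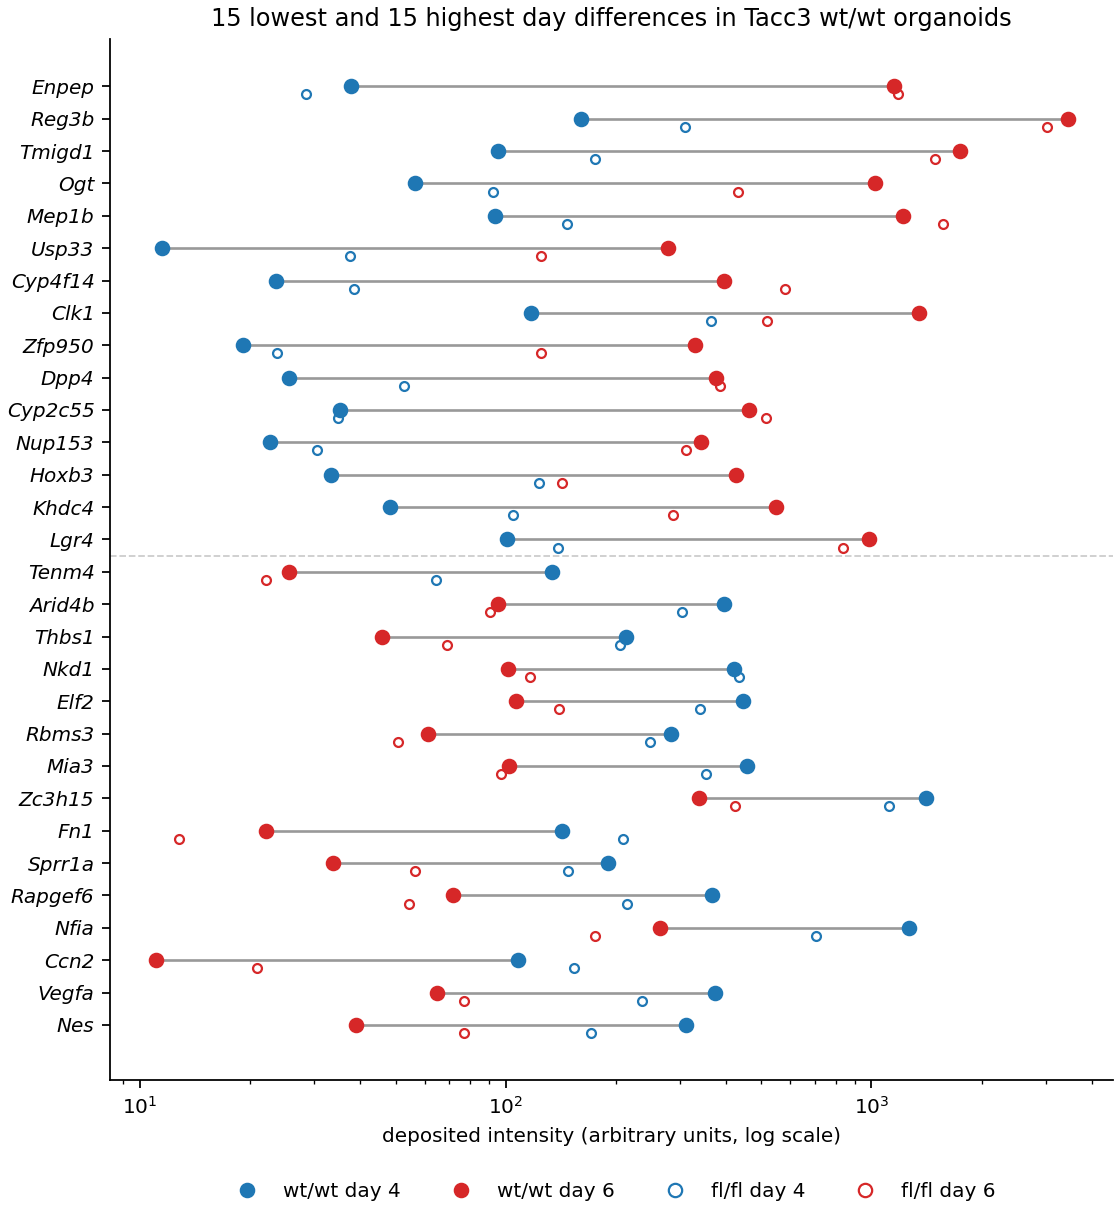
Deposited intensity (log axis) of the 15 genes with the highest and the 15 with the lowest wt/wt day difference, filled points for the wt/wt arrays and open points, set slightly lower, for the fl/fl arrays. Enpep runs from 37.8 at day 4 to 1154 at day 6 and Ccn2 from 108 to 11.04, while Clk1 and Hoxb3 show close open points.

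The gene that names the genotypes did not differ by 2-fold between the days. Tacc3 read 184 at day 4 and 167 at day 6 in wt/wt organoids (-0.13; adjusted p = 0.509, limma), and its 2 dimmer probe sets differed by 0.28 and 0.36. Apc had no common direction: its brightest probe set read 27.9 at day 4 and 122 at day 6 (1.65) and a second one 28.5 and 94.7 (1.31), while another read 81.9 and 20.8 (-1.41). In fl/fl organoids these 3 differed by 1.25, 0.89 and -1.10. Which of them lie in floxed exons is not given in the sources used here, so they do not check recombination.

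Enterocyte functions stood high at day 6. Among 16 brush border genes above the filter, 10 (62.5%) were 2-fold higher and none lower, against 18.3% and 2.97% of all genes. Their median was 1.61 as deposited and 1.39 after quantile normalization, against 0.17 and -0.13 for all genes. Mgam, the maltase that finishes starch digestion, read 439.6 at day 4 and 2228 at day 6 (2.30), and Alpi, intestinal alkaline phosphatase, 52.8 at day 4 and 188 at day 6 (1.57). Mep1a, the second meprin subunit, read 23.5 at day 4 and 229 at day 6 (2.63), and the microvillar adhesion gene Cdhr2 228 at day 4 and 616 at day 6 (1.37). Lactase was not among them: Lct read 15.96 at day 4 and 17.9 at day 6, near the filter level, and Ace 56.4 at day 4 and 40.8 at day 6 (-0.35). The additive fit called 11 of the 16 higher and none lower, against 22.8% and 7.15% of all genes.

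Of 20 genes of lipid uptake and chylomicron assembly, 11 (55.0%) were higher and none lower (median 1.17), against 18.3% and 2.97% of all genes. After quantile normalization 8 were higher and none lower (median 0.73). The fatty acid binding gene Fabp2 read 277 at day 4 and 1578 at day 6 (2.44; adjusted p = 0.00392, limma). Mttp, which loads lipid onto apolipoprotein B, read 19.6 at day 4 and 164 at day 6 (2.34), and Apob itself 191 at day 4 and 587 at day 6 (1.54). Apoa1 read 531 at day 4 and 2870.4 at day 6 (2.40), and Npc1l1, the cholesterol uptake protein, 59.3 at day 4 and 149 at day 6 (1.13). Several members had larger values in fl/fl: Apoa4 differed by 0.99 in wt/wt but 2.57 in fl/fl, and Fabp1 by 0.06 and 1.13. Those differences between the genotypes were not tested.

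Transporters of sugars and amino acids shared the direction in part. Slc5a1, the sodium-glucose cotransporter, read 127 at day 4 and 545 at day 6 (1.97), whereas the fructose transporter Slc2a5 read 26.5 at day 4 and 27.6 at day 6. Of 9 sugar genes 3 (33.3%) were higher, and of 18 amino acid and peptide transporters 7 (38.9%), against 18.3% of all genes. None was lower in either list, against 2.97% of all genes (medians 0.57 and 0.69). After quantile normalization 3 and 6 were higher and none lower (medians 0.40 and 0.31). The apical amino acid carriers led: Slc6a20a read 20.9 at day 4 and 279 at day 6 (3.002), Slc7a9 47.3 at day 4 and 318 at day 6 (2.40) and Slc6a19 16.9 at day 4 and 88.9 at day 6 (1.67). Slc7a9 pairs with Slc3a1, which differed by 1.76, to take up cystine and basic amino acids. Slc3a2, the partner of basolateral carriers, differed by 1.55 in wt/wt but 0.32 in fl/fl.

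Xenobiotic metabolism, the longest of the absorptive lists, held their largest count of higher genes, with 24 of 40 2-fold higher and none lower. That share is 60.0%, against 62.5% of brush border genes and 18.3% of all genes. The median was 1.22, and 0.79 after quantile normalization, with 17 higher. Cyp3a11, a main drug-oxidising cytochrome P450, read 18.4 at day 4 and 234 at day 6 (2.86; adjusted p = 0.00292, limma), and Cyp3a25 7.96 at day 4 and 163 at day 6 (2.90). Conjugating enzymes and exporters were part of it: Mgst1, a microsomal glutathione transferase, read 183 at day 4 and 1535 at day 6 (2.96), Ugt2b34, a glucuronosyltransferase, 95.8 at day 4 and 649.6 at day 6 (2.57), and Abcb1a, the efflux pump P-glycoprotein, 210.3 at day 4 and 1277 at day 6 (2.51). Their nuclear receptor Nr1i2 (PXR) read 59.7 at day 4 and 137 at day 6 (1.01, and -0.02 in fl/fl). Members of the Cyp, Ces and Ugt families are close in sequence, so their probe sets may share signal.

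Lists of arginine, iron and selenium, oxidative phosphorylation and fatty acid oxidation genes were 27.6% to 33.3% 2-fold higher, against 18.3% of all genes. Cps1 and Oat, which feed citrulline synthesis, read 288 at day 4 and 2542 at day 6 (3.07) and 367 at day 4 and 2270.4 at day 6 (2.58), within a list of 12 urea cycle and arginine genes of which 4 were higher and none lower. Selenop, the selenium carrier, read 263 at day 4 and 1980.1 at day 6 (2.84, and 4.20 in fl/fl), and Heph, the ferroxidase that releases iron, 50.4 at day 4 and 343 at day 6 (2.44). The same list of 21 iron and selenium genes held 6 higher and 3 lower ones. Among the lower was Selenow at 2302 at day 4 and 940.2 at day 6 (-1.28). Of 77 subunits of oxidative phosphorylation 23 were higher and none lower (median 0.71). Quantile normalization left 7 higher and 3 lower, where 10.3% of all genes were higher and 9.59% lower. Ndufs1 of complex I (1.81) and Sdha of complex II (2.01) were among the highest. Among 29 genes of fatty acid oxidation 8 were higher, with a median of 0.47 that came to 0.01 after quantile normalization. Of the 4 Reg lectins, Reg3b, Reg3g (2.53) and Reg3a (1.495) were higher and Reg4, a marker of secretory cells, read 243 at day 4 and 258 at day 6.

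**Figure D3:**
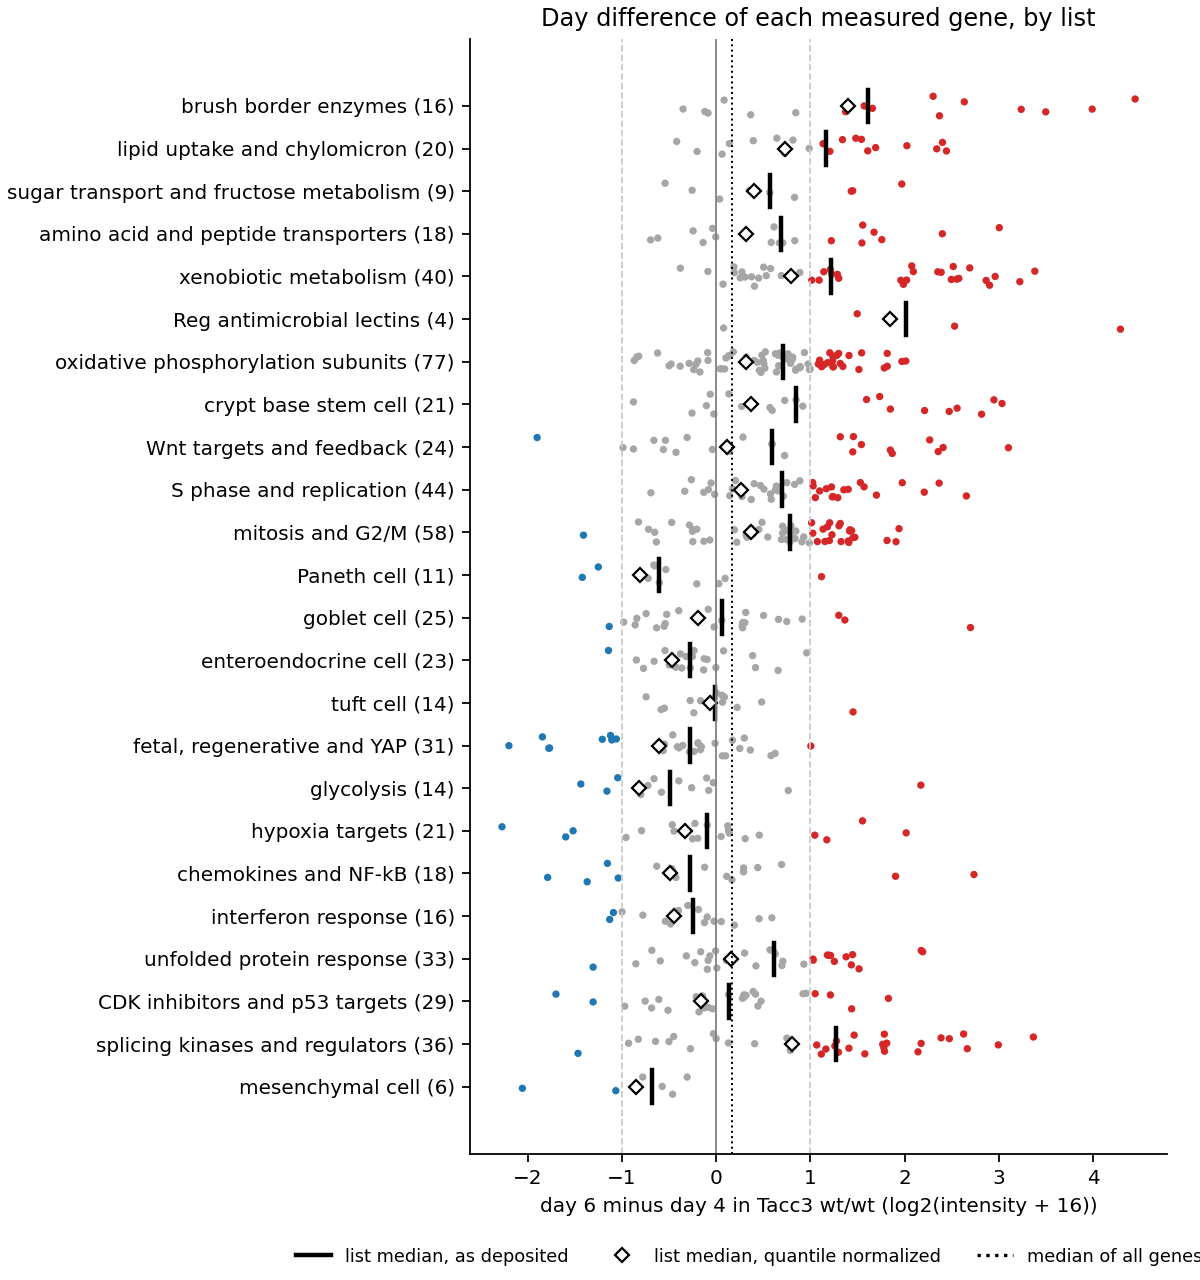
Day difference (log2 scale) of each gene above the filter in wt/wt organoids, 1 point per gene, by list, with the number of genes in brackets; red points are at least 2-fold higher at day 6 and blue points at least 2-fold lower. Bars mark list medians as deposited, diamonds the medians after quantile normalization, and the dotted line the median of all genes, 0.17; the brush border median lies at 1.61 and the glycolysis median at -0.49. The splicing list was chosen after its values were seen.

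Crypt base stem cell genes were higher together with the enterocyte genes. Of 21, 9 (42.9%) were 2-fold higher and none lower (median 0.85), against 18.3% and 2.97% of all genes. After quantile normalization 9 were higher and 1 lower (median 0.37). Olfm4, a secreted glycoprotein of crypt base cells, read 834 at day 4 and 6534 at day 6 (2.95; adjusted p = 0.00292, limma), and Lgr5, the R-spondin receptor that defines them, 262 at day 4 and 983 at day 6 (1.85, and 0.78 in fl/fl). Lrig1, which restrains EGF receptors, read 74.4 at day 4 and 723 at day 6 (3.03), and Rgmb, a BMP coreceptor, 33.8 at day 4 and 334 at day 6 (2.81). Smoc2 read 201 at day 4 and 1260.5 at day 6 (2.55), but a second probe set of it read 686 and 308 (-1.11). The transcription factors of the list differed less: Ascl2 by 0.59 and Sox9 by -0.06.

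The Wnt targets split. Of 24, 10 were 2-fold higher and 1 lower, or 9 and 3 after quantile normalization, with a median of 0.59 that came to 0.12. Of all genes 18.3% were higher and 2.97% lower, or 10.3% and 9.59% after quantile normalization. The receptor-side genes were high at day 6: Znrf3 and Rnf43, the ubiquitin ligases that remove Wnt receptors, read 25.5 at day 4 and 135 at day 6 (1.87) and 179 at day 4 and 468 at day 6 (1.32, and -0.22 in fl/fl). Myc read 75.7 at day 4 and 470.4 at day 6 (2.41) and Cd44, a crypt adhesion receptor, 177 at day 4 and 545 at day 6 (1.54). Axin2, a scaffold for beta-catenin degradation and a common readout of the pathway, read 109 at day 4 and 584 at day 6 (2.26), but a second probe set of it read 134 and 55.6 (-1.06). Other feedback inhibitors read lower at day 6, namely Nkd1 (-1.90) and Notum, at 60.8 at day 4 and 36.9 at day 6 (-0.54). Genes that restrain Wnt thus lay on both sides. The targets Sp5 (109 at day 4 and 77.2 at day 6, -0.43) and Ccnd1 (1839 at day 4 and 1242 at day 6, -0.56) also read lower. Sox4 gave both answers, with 2198 at day 4 and 1100.1 at day 6 in its brightest probe set (-0.99) and 623 and 2868 in another (2.17).

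Secretory cells showed no such pattern. The lysozyme gene of Paneth cells, Lyz1, read 22578 at day 4 and 23031 at day 6. Of 24 listed Paneth genes only 13 were measured, and 11 were above the filter. Among these 11, 1 was higher and 2 lower (median -0.60 in wt/wt, -1.16 in fl/fl), against 18.3% and 2.97% of all genes. The additive fit called 7 of the 11 lower, against 7.15% of all genes. Mmp7, which activates defensins, read 2701 at day 4 and 1702 at day 6 (-0.66, and -1.85 in fl/fl; adjusted p = 0.0252, limma), and Clps, a lipase cofactor, 993 at day 4 and 361 at day 6 (-1.42). Among 25 goblet genes 3 were higher and 1 lower as deposited and 1 higher and 6 lower after quantile normalization, with a median of 0.06 that turned to -0.19. Muc2, the gel-forming mucin, read 648 at day 4 and 676 at day 6 in wt/wt, against 1611 and 583 in fl/fl (-1.44), a contrast that was not tested. Tff3, a trefoil peptide of mucus, read 9264 at day 4 and 6314 at day 6 (-0.55), and Muc3, a membrane mucin also made by enterocytes, 40.5 at day 4 and 351 at day 6 (2.70). The 23 enteroendocrine genes held 1 lower and none higher (Chga 45.6 at day 4 and 35.7 at day 6), and the 14 tuft cell genes 1 higher and none lower (Dclk1 19.7 at day 4 and 21.2 at day 6). Most genes of those 2 lists were dim, so small differences in them could not be measured here.

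Genes of DNA replication and mitosis were higher at day 6 in sizeable shares. Of 44 S phase genes 18 (40.9%) were 2-fold higher and none lower (median 0.70). Of 58 mitotic genes 22 (37.9%) were higher and 1 lower (median 0.79), against 18.3% and 2.97% of all genes. After quantile normalization the counts were 8 and 1 for S phase and 10 and 5 for mitosis. Of all genes 10.3% were then higher and 9.59% lower. Pcna, the sliding clamp of DNA polymerases, read 333 at day 4 and 1354 at day 6 (1.97), Mcm4 of the replicative helicase 116 at day 4 and 663 at day 6 (2.36), and Top2a, topoisomerase II alpha, 207 at day 4 and 765 at day 6 (1.81). Bub1, a spindle checkpoint kinase, read 26.5 at day 4 and 147 at day 6 (1.94), and Cdk1, the mitotic kinase, 168 at day 4 and 469 at day 6 (1.40). The proliferation marker Mki67 was not among them, at 766 at day 4 and 643 at day 6 (-0.25, and 0.43 in fl/fl). The lower gene was Ncapg, a condensin subunit (-1.41), of which another probe set differed by 1.13.

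The promoters of these genes are shown because 2 elements known from cell cycle promoters occur in many of them. Sequences shown are from RefSeq on GRCm38.p6, within 250 bases before each gene's start, 5′ to 3′ on the gene's strand. Capitals mark the match on either strand. Shares of promoters with a motif count matches from 250 bases before to 50 bases after the start. The E2F motif was searched as TTTGGCGC or TTTCCCGC, and no motif used here is contained in another. It was present in 11 of 36 S phase promoters (30.6%), against 1.63% of all 27025 promoters in the table and 3.18% of those of genes above the filter. The CHR element, searched as TTTGAA, was present in 35 of 49 mitotic promoters (71.4%), against 18.1% and 11.7%. Shown, at 80 bases each, are Hells (chr19:38930892-38930971, + strand), a chromatin remodeller, Mcm5 (chr8:75109324-75109403, + strand) of the helicase, Top2a (chr11:99024326-99024405, - strand) and Ect2 (chr3:27153950-27154029, - strand), an exchange factor of cell division.
Hells, E2F: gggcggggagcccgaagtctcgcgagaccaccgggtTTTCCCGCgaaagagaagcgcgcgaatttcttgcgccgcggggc
Mcm5, E2F: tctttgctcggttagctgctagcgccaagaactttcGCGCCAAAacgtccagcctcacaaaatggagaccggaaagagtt
Top2a, CHR: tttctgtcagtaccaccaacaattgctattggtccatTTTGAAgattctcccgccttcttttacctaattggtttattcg
Ect2, CHR: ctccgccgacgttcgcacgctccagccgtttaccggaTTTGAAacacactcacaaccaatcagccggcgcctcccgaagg
The wt/wt day differences of these genes were 2.65, 1.53, 1.81 and 1.45. For Hells, quantile normalization made another probe set the brightest, which differed by -0.89. A match describes letters in a window and is not evidence of binding.

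The motif of the enterocyte factor HNF4, searched as CAAAGTCCA, was rare, in 0.477% of all promoters and 0.412% of those of genes above the filter. Antigen presentation genes held it in 1 of 9 promoters and cytosolic ribosomal protein genes in 2 of 40. A like share, 2 of 37, was found in the xenobiotic list. Both members with it were among the higher genes of that list, Cyp3a11 (chr5:145879920-145879999, - strand; 2.86) and Cyp2c65 (chr19:39060854-39060933, + strand; 2.55).
Cyp3a11, HNF4: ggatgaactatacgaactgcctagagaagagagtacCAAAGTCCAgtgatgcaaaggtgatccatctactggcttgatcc
Cyp2c65, HNF4: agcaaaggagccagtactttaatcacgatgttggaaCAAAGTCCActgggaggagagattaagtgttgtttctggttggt
The level of Hnf4a itself differed by 0.35.

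Genes of fetal and regenerating epithelium and of YAP activity had the largest number of lower members of the 45 lists, though the mesenchymal list had the larger share, 2 of 6. Of 31, 8 (25.8%) were 2-fold lower and 1 higher (median -0.28), against 2.97% and 18.3% of all genes. After quantile normalization 10 were lower and none higher, against 9.59% and 10.3% of all genes. The additive fit called 11 lower and 1 higher, against 7.15% and 22.8% of all genes. Clu, the secreted chaperone that marks revival stem cells, read 3974 at day 4 and 1157 at day 6 (-1.77, and -2.500 in fl/fl; adjusted p = 0.00439, limma). Msln, mesothelin, read 122 at day 4 and 22.6 at day 6 (-1.84), and Basp1 85.4 at day 4 and 13.6 at day 6 (-1.77). The YAP target Ankrd1 read 33.1 at day 4 and 6.57 at day 6 (-1.12) alongside Ccn2, but Ccn1, another target, read 249 at day 4 and 261 at day 6. Anxa1, an annexin of regenerating crypts, read 696 at day 4 and 459 at day 6 (-0.59), and Yap1 itself 150.00 at day 4 and 317 at day 6 (1.004). Beside this list, the 6 mesenchymal markers above the filter had a median of -0.68, with Sparc at 61.8 at day 4 and 21.2 at day 6 and Vim at 27.4 at day 4 and 13.2 at day 6. The part of such cells in the lower matrix genes was not tested.

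Inflammatory genes held lower members too. Of 18 chemokine and NF-kB genes 4 were lower and 2 higher, with a median of -0.27 that turned to 0.11 without probe sets of the x_at and s_at kind, which can read several transcripts. Ptgs2, the inducible cyclooxygenase, read 56.6 at day 4 and 5.03 at day 6 (-1.79; adjusted p = 0.00439, limma), and Nfkb2 297 at day 4 and 125 at day 6 (-1.15). The higher pair were chemokines made by gut epithelium, Ccl25 at 106 at day 4 and 792 at day 6 (2.73) and Ccl28 at 14.9 at day 4 and 99.5 at day 6 (1.90). Among 16 interferon genes 2 were lower and none higher, with Oas1a at 215 at day 4 and 89.5 at day 6 (-1.13). Of 11 genes of antigen presentation 4 were higher and none lower under both scalings, with a median of 0.12 that came to -0.0046 after quantile normalization. The higher ones were class I genes: B2m, the light chain, read 157 at day 4 and 1195 at day 6 (2.81) and H2-K1 388 at day 4 and 1333 at day 6 (1.74), while the class II genes of the list, such as Cd74 (-0.53), were not 2-fold higher.

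Glycolysis had a median below 0, -0.49 over 14 genes in wt/wt organoids against 0.01 in fl/fl. Pgk1, phosphoglycerate kinase, read 3055 at day 4 and 1474 at day 6 in wt/wt (-1.04) and 2439 and 2313 in fl/fl (-0.08). Pfkl, a phosphofructokinase, read 88.96 at day 4 and 22.8 at day 6 (-1.44) and Pkm, a pyruvate kinase, 462 at day 4 and 198 at day 6 (-1.16). Of the 14 genes 1 was 2-fold higher and 3 lower as deposited, and 1 higher and 6 lower after quantile normalization. The higher gene was the lactate carrier Slc16a1, which read 70.7 at day 4 and 374 at day 6 (2.17), and the only other one above 0 was the hexokinase gene Hk2 (0.76). Some hypoxia targets followed: Bnip3, a mitophagy receptor, read 216 at day 4 and 65.03 at day 6 in wt/wt (-1.52) and 104 and 181 in fl/fl (0.72), and Egln3, an oxygen-sensing prolyl hydroxylase, 235 at day 4 and 67.1 at day 6 (-1.60) and 145 and 222 (0.56). For Bnip3, Egln3 and Pgk1 the highest of the 4 arrays was wt/wt at day 4 and the lowest wt/wt at day 6. Of 21 hypoxia targets 3 were lower and 4 higher in wt/wt, a higher share near the 18.3% of all genes, and 5 lower and 2 higher after quantile normalization (median as deposited -0.09, which turned to 0.05 with the mean of all probe sets per gene, and 0.47 in fl/fl). Among the higher ones were Kdm3a, a histone demethylase (2.01), and Hif1a itself (1.55). The difference between the genotypes was not tested. The additive fit did not pass for Bnip3 (adjusted p = 0.54, limma), Egln3 (0.414) or Pgk1 (0.158). As its error is the difference between the genotypes, genes with unlike day differences tend to fail it, and these p-values are no separate check.

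The hypoxia response element, searched as ACGTGC, was present in 8 of 20 promoters of the hypoxia list and 5 of 14 of the glycolysis list, against 5.92% of all promoters. Bnip3 (chr7:138909573-138909652, - strand) and Pgk1 (chrX:106186931-106187010, + strand) are shown with it in capitals, in both as its reverse complement. In Bnip3 the letters ACGTGC themselves overlap the marked stretch and end in lower case.
Bnip3, HIF: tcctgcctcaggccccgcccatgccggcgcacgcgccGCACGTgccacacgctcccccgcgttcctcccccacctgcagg
Pgk1, HIF: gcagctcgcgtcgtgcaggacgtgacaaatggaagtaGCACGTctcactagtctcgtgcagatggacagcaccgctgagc
Among the 267 promoters of genes lower at day 6 the share was 9.74%, and among the 1724 of higher genes 8.76%, against 8.45% of genes above the filter.

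Genes of RNA splicing stood out among the highest genes. A list of 38 splicing kinases, SR proteins and related nuclear RNAs was therefore drawn up after their values were seen. It is no independent evidence of direction or of a difference between the genotypes. Genes picked for high wt/wt values can read lower in fl/fl by that choice alone, and the contrast was not tested. Of 36 above the filter 22 were 2-fold higher in wt/wt and 1 lower, with a median of 1.27, against 0.0043 in fl/fl. Besides Clk1, the SR-related factor Tra2a read 88.9 at day 4 and 649 at day 6 in wt/wt (2.66) and 149 and 251 in fl/fl (0.70). Arglu1, a splicing cofactor, read 581 at day 4 and 2041 at day 6 (1.79) against 1292 and 1048 (-0.30), and the cyclin Ccnl2 284 at day 4 and 1017 at day 6 (1.78) against 569 and 513 (-0.15). The paraspeckle RNA Neat1 read 1161 at day 4 and 2835 at day 6 (1.28) against 2177 and 1414 (-0.62), though a dim probe set of it differed by -0.66 in wt/wt. For Clk1, Tra2a, Arglu1, Ccnl2 and Neat1 the lowest of the 4 arrays was wt/wt at day 4 and the highest wt/wt at day 6, with both fl/fl arrays between. Of 9 SR protein genes in the list 7 were 2-fold higher in wt/wt, 5 in fl/fl and 4 in wt/wt after quantile normalization, and none was lower; Srsf2 read 188 at day 4 and 1048 at day 6 (2.38 and 2.43). The lower gene was Pnisr, with 1677 at day 4 and 597 at day 6 in its brightest probe set (-1.46), whereas 5 dimmer probe sets of it were 2.16 to 3.35 higher.

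**Figure D4:**
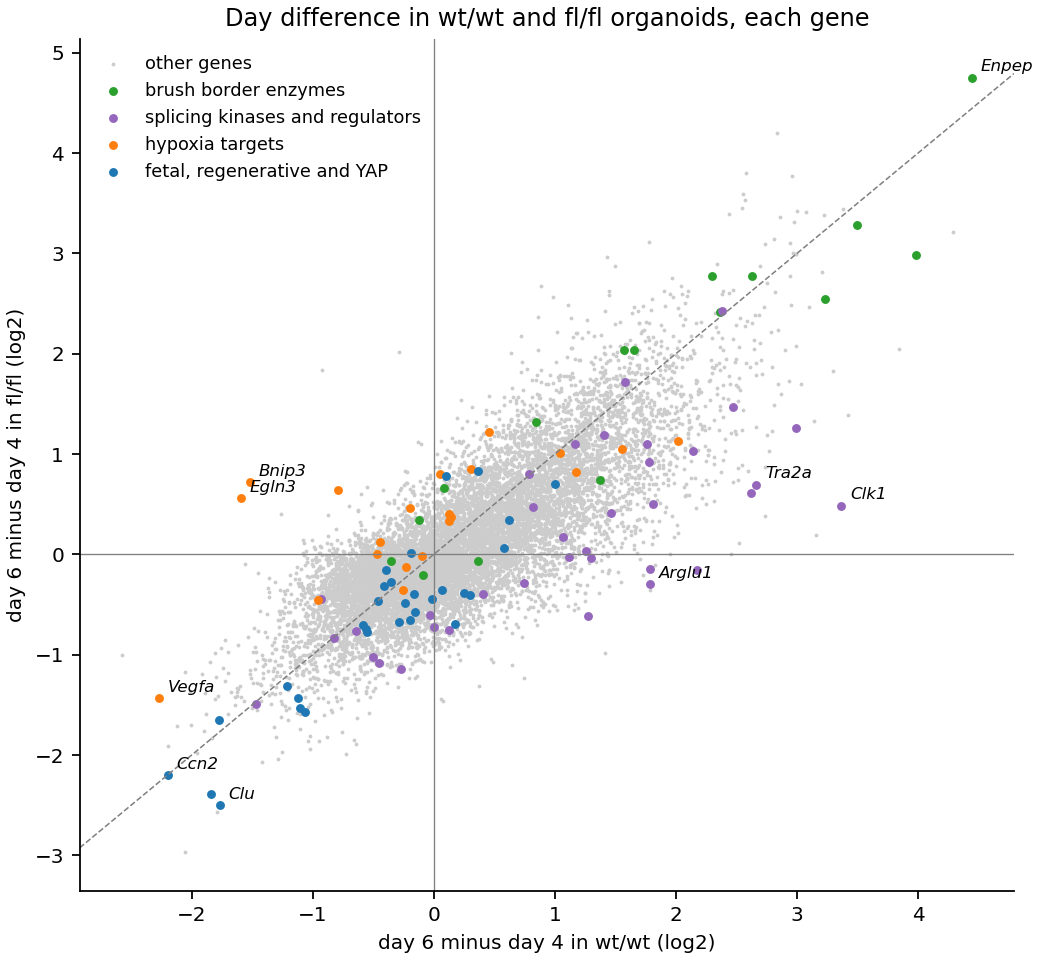
Day difference (log2) in wt/wt organoids against that in fl/fl organoids for each of 11392 genes, with 4 lists in colour and the line of equal differences dashed. Enpep lies near that line at 4.44 and 4.75, Clk1 far below it at 3.36 and 0.49, and Bnip3 and Egln3 above 0 only in fl/fl. The splicing list was chosen after its values were seen, so its place below the line is no independent evidence of a difference between genotypes.

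Stress responses were mixed. Of 33 genes of the unfolded protein response 12 were higher and 1 lower in wt/wt, with a median of 0.61 against 0.01 in fl/fl. After quantile normalization 5 were higher and 4 lower, with a median of 0.16. The chaperone Canx read 208 at day 4 and 1004 at day 6 (2.19, and 1.65 in fl/fl; adjusted p = 0.00441, limma), and the transcription factor Xbp1 569 at day 4 and 1505 at day 6 (1.38, and 0.29 in fl/fl; adjusted p = 0.0721, limma), of which a dim probe set differed by -0.77. Not all members were higher: the stress transcription factor Ddit3 read 214 at day 4 and 127 at day 6 (-0.68) and Sesn2, a stress-induced leucine sensor, 110.1 at day 4 and 35.03 at day 6 (-1.30). Among 29 CDK inhibitors and p53 targets 4 were higher, a share below the 18.3% of all genes, and 2 lower; after quantile normalization 2 were higher and 5 lower, and the median of 0.13 turned to -0.16. Mdm2, the ligase that degrades p53, read 450.1 at day 4 and 128 at day 6 (-1.70), with another probe set at 0.60, and Cdkn1a, the p21 inhibitor, 545 at day 4 and 352 at day 6 (-0.61).

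Genes often used as references were not level between the days. Of 13, 5 were 2-fold higher at day 6 and 1 lower, with a median of 0.63. Hprt read 294 at day 4 and 633 at day 6 (1.06) and Pgk1 differed by -1.04, whereas Ywhaz read 2748 at day 4 and 2564 at day 6 (-0.10, but 1.27 without x_at and s_at probe sets) and the brightest Actb probe set outside the controls 5807 at day 4 and 6382 at day 6 (0.14). The 46 cytosolic ribosomal protein genes had a median of 0.42, with 3 higher and none 2-fold lower, and 0.18 after quantile normalization. The 36 proteasome subunits had a median of 0.66, with 9 higher and none lower, of which quantile normalization left 1. The brightness of a gene moved with its day difference: the median was -0.13 for genes between the 50th and 75th percentile of probe set level, 0.38 between the 75th and 90th, 0.46 between the 90th and 95th and 0.33 above. After quantile normalization these medians lay between -0.22 and -0.02.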

How the data were processed

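The authors deposited 1 linear intensity for each of 45101 probe sets on each of 4 Affymetrix arrays, as the values show. Per the labels' protocols, cRNA labelled with biotin was prepared by a 3′ in vitro transcription kit from 100 ng of column-purified RNA. How probes were summarised, corrected for background and normalized is not given in the sources used here, and array medians from 15.4 to 17.7 show that the arrays do not share 1 distribution. The number of arrays, 1 per group, limits the precision.

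The platform's table named 34958 probe sets with 1 symbol, 932 with several and left 9211 out. Symbols were updated by Entrez ID through RefSeq's GRCm38.p6 table (34754 matched), which also supplied promoters. The probe set with the highest mean stood for a gene, leaving out controls and probe sets of several genes. The wt/wt pair was compared by size alone, at 2-fold. The 4 arrays were fitted with limma 3.58.1 in R 4.3.3 (day and genotype, empirical Bayes, Benjamini-Hochberg), tested on simulated data. Other steps used Python 3.11.15 and pandas 2.3.3. Alternatives were quantile normalization, median centring, pseudocounts of 4 and 64, no filter or a filter at the 75th percentile, averaged probe sets, and no x_at or s_at probe sets.

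The comparison and the 44 gene lists were chosen with earlier results of these data known. Named genes were Tacc3, Apc, the 15 highest and 15 lowest differences and, per list, the first 3 members and up to 8 by size of difference. A further 34 genes outside that rule, and the splicing list, were named after their values were seen.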

Additional observations from a re-analysis of the deposited data

Results flagged for a closer look

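In 9 genes the day difference was at least 2-fold in wt/wt organoids and at least 0.5 on the log2 scale in the other direction in fl/fl organoids. Each genotype has 1 array per day and so gives a single difference with no replicate, and the contrast between the genotypes was not tested. The 2 genes lower at day 6 in wt/wt were the hypoxia targets Egln3 (-1.60 in wt/wt, 0.56 in fl/fl) and Bnip3 (-1.52, 0.72). The 7 genes higher in wt/wt were Hoxb5 (1.41, -0.98), a homeobox gene, the nuclear RNA Neat1 (1.28, -0.62), Erbin (1.19, -0.53), Supt20 (1.16, -0.56; another probe set -0.74 in wt/wt), a subunit of a histone acetyltransferase complex, Pank4 (1.11, -0.51), the ubiquitin ligase Cblb (1.02, -0.55; another probe set -0.64 in wt/wt) and Zcchc7 (1.005, -0.52).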

How the results depend on the processing

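The count of genes 2-fold higher at day 6 in wt/wt organoids, 2082, was 1176 after quantile normalization, 1081 with a pseudocount of 64 and 1211 with probe sets averaged per gene. The count of lower genes, 338, was 1094 after quantile normalization, 700.0 with a pseudocount of 4, 120.0 with a pseudocount of 64 and 88 with averaged probe sets. The additive limma fit called 1437 genes higher and 372 lower without the filter, and 2239 lower after quantile normalization. The other alternatives kept these counts within 1.5 times. Of the 175 genes named, 4 had a 2-fold difference whose sign turned: Arid4b (2.48 without x_at and s_at probe sets), Supt20 (-0.74, same setting), Pnisr (1.56 with averaged probe sets) and Hells (-0.89 after quantile normalization and -0.43 with a pseudocount of 4, where another probe set became the brightest). Quantile normalization took 18 named genes below 2-fold, a pseudocount of 64 took 21 and averaging 41. List medians changed sign in 5 lists after quantile normalization, in 7 with the filter at the 75th percentile and in 3 or fewer under each other alternative; no median of at least 2-fold did. No paired analysis was possible because the wt/wt groups hold 1 array each and the labels give no replicate numbers; the additive limma fit takes the day difference within each genotype. Leaving out a replicate was not run for the same reason. A table of proteins was not used here, so the day difference was not set against protein length. Dim genes, most enteroendocrine and tuft cell markers among them, are limited by the array's background, and the lower 5′ to 3′ ratios at day 4 cannot be told apart from day.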

Other observations

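Cell-cell junctions, growth factor feedback and ion transport are not described above. Their lists held more 2-fold higher than lower genes at day 6 in wt/wt organoids, as did all genes (18.3% higher and 2.97% lower). The shares higher were 33.3% for junctions, 42.9% for ion transport, 26.3% for EGF signalling and 22.2% for the Notch list. The last 2 were nearest the share of all genes. Of 18 claudin and tight junction genes 6 were 2-fold higher and none lower, with a median of 0.83, and 0.46 after quantile normalization; Ocln, occludin, read 64.7 at day 4 and 317 at day 6 (2.05), and Cldn2, a pore-forming claudin of crypts, 85.3 at day 4 and 334 at day 6 (1.79). Of 21 ion and fluid transport genes 9 were higher and 1 lower (median 0.69). Of 19 genes of EGF signalling 5 were higher and 1 lower, or 4 and 3 after quantile normalization (median as deposited 0.48): Ereg, a ligand made by epithelium, read 22.5 at day 4 and 100.4 at day 6 (1.60), while Hbegf, another ligand, read 179.8 at day 4 and 99.96 at day 6 (-0.76). The Notch ligand Dll1 read 69.3 at day 4 and 218 at day 6 (1.46) and the target Hes1 83.8 at day 4 and 229.9 at day 6 (1.30), in a list of 18 with 4 higher and none lower, or 2 and 2 after quantile normalization, whose median of 0.12 turned to -0.10.

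Heat shock, cholesterol and adhesion genes were mixed. Of 13 heat shock genes 4 were 2-fold higher and 1 lower (median 0.43), and 2 and 2 after quantile normalization (median 0.02). The mitochondrial chaperonin pair Hspd1 and Hspe1 differed by 1.502 and 1.46, whereas the small heat shock gene Hspb1 read 85.6 at day 4 and 26.2 at day 6 (-1.27). Of 18 genes of cholesterol synthesis 2 were higher and 1 lower, or 2 and 2 after quantile normalization: Msmo1, a sterol oxidase, read 68.3 at day 4 and 293 at day 6 (1.88) and Mvd, a decarboxylase of the mevalonate pathway, 289 at day 4 and 107 at day 6 (-1.31). Of 32 integrin, laminin and keratin genes 3 were higher and 1 lower, or 1 and 2 after quantile normalization, with Krt20, a keratin of differentiated enterocytes, at 190.2 at day 4 and 534 at day 6 (1.42) and the laminin chain gene Lama5 at 235 at day 4 and 74.04 at day 6 (-1.48). Of 26 intestinal transcription factors 7 were higher and none lower, or 4 and 2 after quantile normalization, among them the bile acid receptor Nr1h4 at 21.2 at day 4 and 105 at day 6 (1.70), while the homeobox gene Cdx2 differed by 0.43. The immediate early genes had 4 higher of 21, a share near the 18.3% of all genes, and 1 lower, and after quantile normalization 3 higher and 5 lower. The BMP genes had 1 higher and none lower of 14, and their targets Id1, Id2 and Id3 differed by 0.68, 0.69 and 0.73 in wt/wt and by 1.54, 1.23 and 1.92 in fl/fl.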
